A study of Homo sapiens with 7 samples.

Results

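The genes described here are 37 genes of transforming growth factor beta (TGF-beta) and bone morphogenetic protein (BMP) signalling and of the CCN family: ligands, receptors, secreted binding proteins and antagonists, SMAD proteins, inhibitors and target genes. They were taken as a named list, chosen with earlier results of these data known. Each was read at its brightest probe set, that of highest mean over all arrays among those annotated to that gene alone. A probe set was found for 36 of the 37, out of 19775 genes on the array, and these 36 genes had 97 probe sets in all. BMPR1A had no probe set of its own in the annotation used and is named only.

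The samples were 7 expression arrays of Panc1 cells, a human pancreatic cancer line long established in culture and here grown in DMEM with 10% FBS, whose stable transfectants had been isolated as single-cell clones. The S100P-labelled arm carried pcDNA3.1/S100P-V5-His, which encodes the small calcium-binding protein S100P with a V5-His tag, and held 2 arrays of clone 5 and 2 arrays of clone 1. The vector arm carried pcDNA3.1/V5-His without S100P and held 1 array of clone V1 and 2 arrays of clone V3. Every group is thus at most 2 clones of 1 parental line, and a difference between arms holds differences between clones. Values are log2 expression as deposited, and a log2 difference of 1 is a 2-fold difference.

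TGF-beta and activins bind pairs of type II and type I receptor kinases that phosphorylate SMAD2 and SMAD3, while BMPs act through other receptors and SMADs of their own. Both kinds of SMAD enter the nucleus with SMAD4, and SMAD6, SMAD7, SKI, SKIL and PMEPA1 hold the signal back, several of them as its own target genes. The ID genes are classical targets of BMP signalling, and CCN1 and CCN2, secreted matricellular proteins, are targets of TGF-beta and of the TEAD factors that work with YAP. TGF-beta is known in pancreatic cancer for both restraining growth and driving a mesenchymal, matrix-rich state.

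The array medians lay between 4.51 and 4.58. S100P itself read 5.36 and 5.45 on the clone 5 arrays and 5.80 and 5.95 on the clone 1 arrays, against 4.65 on the V1 array and 5.65 and 6.01 on the V3 arrays. It was thus not detectably higher on the S100P-labelled arrays (limma log2 difference 0.27, SE 0.32, adjusted p = 0.846), and the arms are named by their labels only. Whether this probe set reads the tagged S100P transcript of the construct was not tested. Of 7 markers of Panc1 and epithelial cells, 6 lay above the median on every array (KRT7, KRT8, KRT18, KRT19, EPCAM and VIM, the last a mesenchymal filament protein). The remaining marker, the epithelial cadherin CDH1, lay below the median on V1, at 3.83, and above it on the other 6 arrays. Of 8 fibroblast markers, THY1 and COL1A1 lay above it on every array and 5 below it, and of 5 endothelial markers PECAM1 lay above it. None of 4 leukocyte markers lay above it on every array. The 3' minus 5' difference of the ACTB control probe sets, a sign of RNA quality, was 0.29 and 0.27 on the clone 5 arrays, 0.53 and 0.44 on the clone 1 arrays, 0.18 on the V1 array and 0.28 and 0.32 on the V3 arrays. It was therefore highest on clone 1 and lowest on V1, and its part in the differences of these clones was not tested. The V1 label has another prefix than the other 6, so any separate handling of that array and its clone cannot be told apart.

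Single clones were compared in a limma fit with 1 mean for each of the 4 clones, which sets these clones against the spread between arrays of a clone and does not compare conditions. At an adjusted p of 0.05, 10 of 36 members (27.8%) passed in clone 5 against clone 1, where 3.02% of all genes passed. There were 9 lower in clone 5 (CCN1, CCN2, ID3, PMEPA1, SKIL, TGFB2, TGFBR2, LTBP1 and INHBB), against 2.35% of all genes, and 1 higher (TGFBR3), against 0.673%. Of the 97 probe sets of the members 14 passed, against 2.19% of all probe sets. The median difference of the members was -0.22, and that of all genes was 0.02. Without regard to sign the median was 0.29 for the members and 0.12 for all genes. In V1 against V3, 9 of 36 members (25%) passed, where 7.72% of all genes passed, and 10 of their 97 probe sets, against 5.85% of all probe sets. ID1, ID2, ID3, INHBB, SKI and BMP2 were higher in V1 (6 of 36, against 2.64% of all genes). SKIL, TGFBR2 and TGFBI were lower (3 of 36, against 5.08%), and the median difference was 0.01 for the members and 0.02 for all genes. The shares and medians of all genes, here and below, include dim genes and are not matched to the members by level. Counts of passing genes with dim probe sets left out are given at the end, but not for clone 1 against the vector clones. The number of genes kept is not given, so they cannot be read as shares. Over all alternative settings, the highest count of members was 13 in clone 5 against clone 1 and 13 in V1 against V3. The members were also chosen with earlier results of these data known, so these shares are a description and not a test.

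The fit of 4 clones leaves 3 residual degrees of freedom, and its calls depend on each array. When any of the 6 arrays other than V1 was dropped, 0 of 36 members passed in clone 5 against clone 1 by limma, and 13 to 17 still had an unadjusted p under 0.05. In V1 against V3, 0 passed without an array of clone 1 or V3, and ID2, ID3, SKIL and TGFBR2 passed without an array of clone 5. With 1 array left out, 2 to 12 members passed in clone 1 against the vector clones and 0 to 7 in clone 5 against them. CCN2 and ID3 in clone 1 against the vector clones passed in 15 of 15 alternative settings.

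CCN2 had the largest difference of the 36 members between the 2 S100P-labelled clones. It read 10.80 and 10.73 on the clone 5 arrays and 12.29 and 12.26 on the clone 1 arrays, against 10.65 on the V1 array and 11.01 and 11.12 on the V3 arrays. The clone 1 arrays stood alone above the other 5, and clone 5 lay between V1 and V3. CCN2 was 2.85-fold lower in clone 5 than in clone 1 (log2 difference -1.51, SE 0.09, adjusted p = 0.00115) and 2.67-fold higher in clone 1 than in the mean of the vector clones (log2 difference 1.42, SE 0.09, adjusted p = 1.57e-04). In clone 5 against the vector clones the difference was -0.09 (95% interval -0.30 to 0.11, adjusted p = 0.612).

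CCN1, too, was highest in clone 1. It read 12.04 and 12.16 on the clone 5 arrays and 12.95 and 12.93 on the clone 1 arrays, against 12.07 on the V1 array and 12.03 and 12.16 on the V3 arrays. The other 5 arrays spanned 12.03 to 12.16, and both clone 1 arrays lay above them. CCN1 was 1.79-fold lower in clone 5 than in clone 1 (log2 difference -0.84, SE 0.10, adjusted p = 0.0102). It was 1.81-fold higher in clone 1 than in the vector clones (log2 difference 0.86, SE 0.09, adjusted p = 0.00133). Its other probe set gave -1.30 for clone 5 minus clone 1 (adjusted p = 0.00360). Between V1 and V3 neither CCN1 nor CCN2 passed, with differences of -0.02 and -0.42.

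The 250 bases before the CCN2 transcription start are shown because CCN2 is the member with the largest difference within the S100P-labelled arm and a known target of both SMADs and TEADs. They lie at chr6:131951373-131951622 on the minus strand (RefSeq, GRCh38.p14). Capitals mark matches to the SMAD box CAGAC and the TEAD motif GGAATG, each searched on both strands.
CCN2: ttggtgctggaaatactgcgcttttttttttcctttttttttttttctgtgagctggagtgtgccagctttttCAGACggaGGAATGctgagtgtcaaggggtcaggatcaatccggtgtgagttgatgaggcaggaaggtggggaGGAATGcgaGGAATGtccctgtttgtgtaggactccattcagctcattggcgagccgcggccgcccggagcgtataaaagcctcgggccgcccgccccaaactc
There was 1 SMAD box, at -177 from the start, and there were 3 TEAD matches, at -169, -104 and -95. Windows of this length before the start held a SMAD box in 38.0% and a TEAD match in 11.9% of 35116 promoters. The 6 motifs searched also included the SMAD palindrome GTCTAGAC (0.182% of promoters), the GC-rich BMP-SMAD motif GGCGCC (16.4%), the cAMP response element TGACGTCA (1.65%) and the AP-1 motif TGANTCA (6.57%). The CCN2 window held none of these other 4, and a match is a match of letters only.

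The ID genes encode helix-loop-helix proteins without a DNA-binding region, which hold back differentiation factors. ID3 read 7.84 and 7.93 on the clone 5 arrays and 9.21 and 9.07 on the clone 1 arrays, against 7.93 on the V1 array and 5.94 and 6.27 on the V3 arrays. Clone 1 was highest, clone 5 and V1 lay close together, and both V3 arrays were lowest. ID3 was 2.40-fold lower in clone 5 than in clone 1 (log2 difference -1.26, SE 0.13, adjusted p = 0.00661), and 3.54-fold higher in V1 than in V3 (log2 difference 1.82, SE 0.16, adjusted p = 0.00230). Against the mean of the vector clones it was 1.82-fold higher in clone 5 (adjusted p = 0.00803) and 4.37-fold higher in clone 1 (adjusted p = 1.18e-04). ID3 was also the member with the largest difference between the arms, described below.

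ID1 and ID2 shared the low V3 level but not the high clone 1 level. ID1 read 11.20 and 11.50 on the clone 5 arrays and 11.20 and 11.25 on the clone 1 arrays, against 11.22 on the V1 array and 9.79 and 10.15 on the V3 arrays. V3 stood alone below the other 5 arrays, which spanned 11.20 to 11.50. ID1 was 2.39-fold higher in V1 than in V3 (log2 difference 1.26, SE 0.18, adjusted p = 0.0123), and it differed by 0.12 between clone 5 and clone 1 (95% interval -0.23 to 0.47, adjusted p = 0.761). ID2 read 4.87 and 5.09 on the clone 5 arrays and 5.10 and 5.00 on the clone 1 arrays, against 5.45 on the V1 array and 3.65 and 3.98 on the V3 arrays. V1 was highest and V3 lowest, with the S100P-labelled clones between them. ID2 was 3.11-fold higher in V1 than in V3 (log2 difference 1.64, SE 0.17, adjusted p = 0.00420). The V3 arrays of ID2 lay below their array medians, and its second probe set, below the median on every array, gave 0.42 (adjusted p = 0.124). ID4 differed little, with values of 4.56 to 4.90 over the 7 arrays. The probe sets of ID1, ID2 and ID3 are of a kind that can match several transcripts, so signal from related transcripts cannot be told apart.

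The windows before the starts of ID1, ID2 and ID3 are set side by side because these 3 genes were all higher in V1 than in V3, while ID3 alone also passed between the S100P-labelled clones. The ID1 window is chr20:31605039-31605288 on the plus strand, that of ID2 is chr2:8681806-8682055 on the plus strand, and that of ID3 is chr1:23559502-23559751 on the minus strand (RefSeq, GRCh38.p14). Capitals mark the SMAD box CAGAC.
ID1: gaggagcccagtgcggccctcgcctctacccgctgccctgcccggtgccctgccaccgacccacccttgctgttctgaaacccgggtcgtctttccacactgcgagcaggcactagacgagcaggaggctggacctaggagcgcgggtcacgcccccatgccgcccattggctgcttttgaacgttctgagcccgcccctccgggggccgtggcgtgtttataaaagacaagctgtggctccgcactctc
ID2: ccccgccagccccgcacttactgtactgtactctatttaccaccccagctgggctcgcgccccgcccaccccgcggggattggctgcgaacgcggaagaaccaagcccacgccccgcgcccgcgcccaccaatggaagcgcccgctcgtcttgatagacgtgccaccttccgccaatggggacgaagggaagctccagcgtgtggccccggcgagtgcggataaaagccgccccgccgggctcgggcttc
ID3: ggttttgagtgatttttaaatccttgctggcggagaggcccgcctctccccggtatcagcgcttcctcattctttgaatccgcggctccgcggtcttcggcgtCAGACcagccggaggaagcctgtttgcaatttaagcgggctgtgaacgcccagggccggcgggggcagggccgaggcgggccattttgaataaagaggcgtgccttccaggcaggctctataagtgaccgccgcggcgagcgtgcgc
ID3 held 1 SMAD box, at -147, and none of the other 5 motifs. ID1 and ID2 held none of the 6 in these windows, which cover the last 250 bases before the start and no enhancer farther away.

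**Figure D1:**
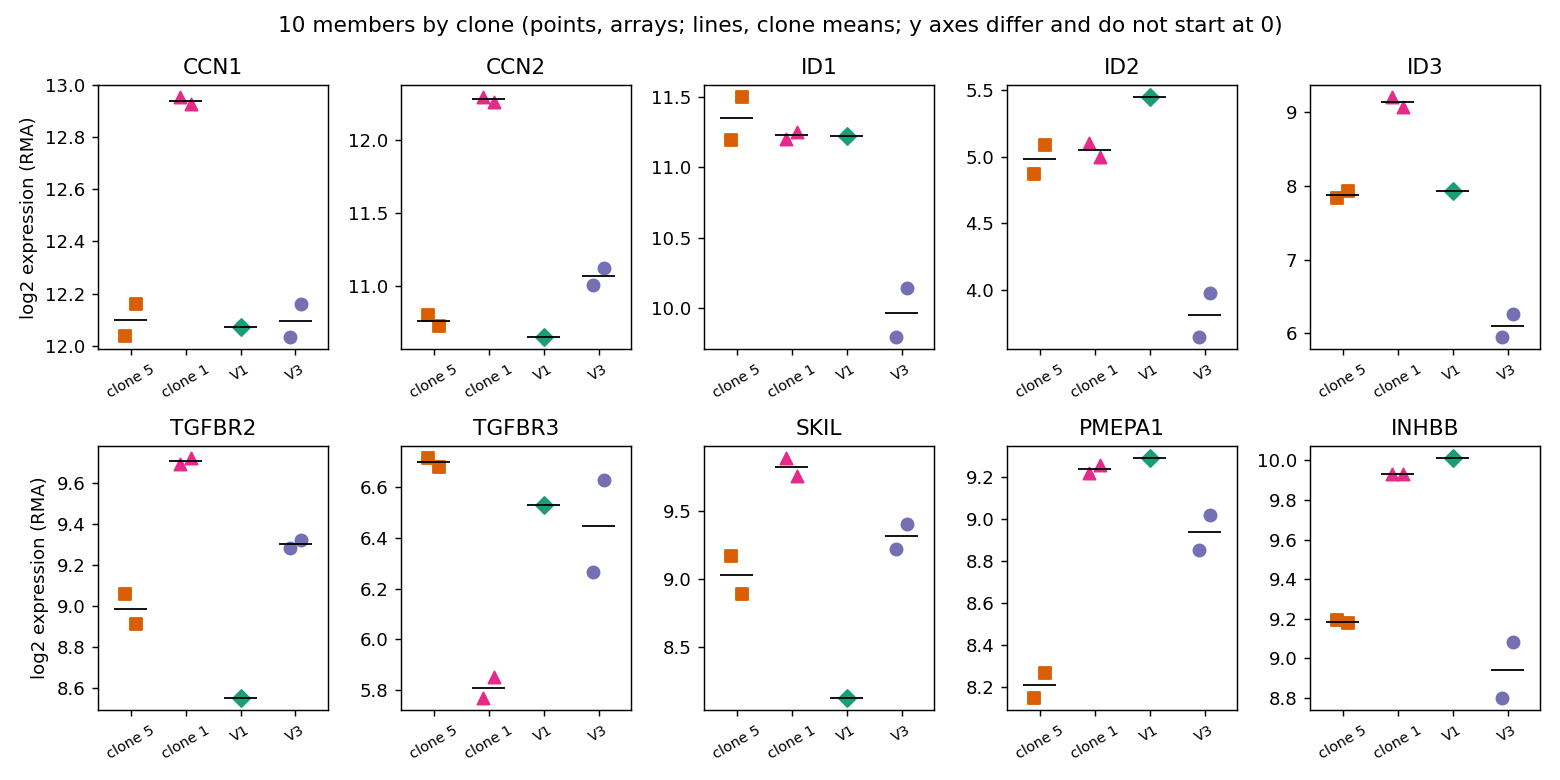
Log2 expression of 10 members on each array (y axis, a separate scale in each panel that does not start at 0), by clone (x axis: clone 5, clone 1, V1, V3). Points are arrays and lines are clone means, and CCN1 and CCN2 are highest on the 2 clone 1 arrays, while ID1, ID2 and ID3 are lowest on the 2 V3 arrays.

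Among the ligands, 2 of 7 fell in clone 5 relative to clone 1, against 2.35% of all genes, and 2 of 7 rose in V1 relative to V3, against 2.64%. INHBB, the beta B subunit of activins and inhibins, read 9.19 and 9.18 on the clone 5 arrays and 9.93 and 9.93 on the clone 1 arrays, against 10.01 on the V1 array and 8.80 and 9.08 on the V3 arrays. Its arrays fell into a high pair of clones, V1 and clone 1, and a low pair, clone 5 and V3. It was 1.68-fold lower in clone 5 than in clone 1 (log2 difference -0.75, SE 0.11, adjusted p = 0.0242) and 2.10-fold higher in V1 than in V3 (log2 difference 1.07, SE 0.14, adjusted p = 0.00823). TGFB2 read 6.94 and 6.73 on the clone 5 arrays and 7.74 and 7.55 on the clone 1 arrays, against 7.24 on the V1 array and 7.74 and 7.79 on the V3 arrays. Clone 5 was lowest and V1 lay next above it. TGFB2 was 1.75-fold lower in clone 5 than in clone 1 (log2 difference -0.81, SE 0.11, adjusted p = 0.0196), and another of its 5 probe sets gave -0.78 (adjusted p = 0.0405). The other 3 did not pass, with -0.56, -0.25 and -0.15.

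TGFB1, the most studied TGF-beta ligand, read 7.95 and 8.09 on the clone 5 arrays and 7.72 and 7.75 on the clone 1 arrays, against 8.44 on the V1 array and 8.12 and 8.28 on the V3 arrays. All 4 S100P-labelled arrays lay below all 3 vector arrays. Clone 1 was 1.50-fold lower than the vector clones (log2 difference -0.58, SE 0.10, adjusted p = 0.00783), while clone 5 differed from them by -0.30 (95% interval -0.52 to -0.08, adjusted p = 0.125). The other, dimmer TGFB1 probe set gave -0.04 in clone 1 (adjusted p = 0.911) and 0.18 in clone 5 (adjusted p = 0.530), and there the arms overlapped. BMP2 lay below the array median on every array and read 3.17 and 3.23 on the clone 5 arrays and 3.16 and 3.13 on the clone 1 arrays, against 3.61 on the V1 array and 3.04 and 3.04 on the V3 arrays. The V1 minus V3 difference of 0.57 (SE 0.10, adjusted p = 0.0267) is thus one of dim signals, and the other BMP2 probe set gave 0.09 and did not pass. TGFB3, BMP4 and INHBA passed in none of the clone comparisons, and INHBA also lay below the median throughout.

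Among the receptors, TGFBR2 and TGFBR3 separated clone 5 from clone 1 in opposite directions. TGFBR2, the type II receptor that binds TGF-beta, read 9.06 and 8.91 on the clone 5 arrays and 9.69 and 9.72 on the clone 1 arrays, against 8.55 on the V1 array and 9.28 and 9.32 on the V3 arrays. The clones did not overlap, with clone 1 highest, V3 next, then clone 5, and V1 lowest. TGFBR2 was 1.65-fold lower in clone 5 than in clone 1 (log2 difference -0.72, SE 0.09, adjusted p = 0.0150) and 1.68-fold lower in V1 than in V3 (log2 difference -0.75, SE 0.11, adjusted p = 0.0143). Its other, dimmer probe set passed in neither, with -0.26 and 0.08. TGFBR3, the co-receptor betaglycan, read 6.72 and 6.68 on the clone 5 arrays and 5.77 and 5.85 on the clone 1 arrays, against 6.53 on the V1 array and 6.27 and 6.63 on the V3 arrays. Clone 1 stood alone below the other 5 arrays. TGFBR3 was 1.85-fold higher in clone 5 than in clone 1 (log2 difference 0.89, SE 0.13, adjusted p = 0.0219), and its second probe set gave 1.29 (adjusted p = 0.00621).

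ACVR1 and BMPR2, a type I and a type II receptor of BMPs, had the same clones at the top and the bottom at their brightest probe sets. ACVR1 read 8.95 and 8.70 on the clone 5 arrays and 9.45 and 9.36 on the clone 1 arrays, against 8.24 on the V1 array and 8.69 and 8.79 on the V3 arrays. BMPR2 read 8.85 and 9.00 on the clone 5 arrays and 9.27 and 9.20 on the clone 1 arrays, against 8.51 on the V1 array and 8.97 and 9.11 on the V3 arrays. At these probe sets both were highest on the 2 clone 1 arrays and lowest on V1. Against the vector clones, clone 1 was 1.88-fold higher for ACVR1 (log2 difference 0.91, SE 0.10, adjusted p = 0.00183) and 1.38-fold higher for BMPR2 (log2 difference 0.46, SE 0.09, adjusted p = 0.0202). BMPR2 had 6 probe sets, of which 1 other passed, with 0.42 in clone 5 (adjusted p = 0.0388) and 0.42 in clone 1 (adjusted p = 0.0240) against the vector clones. There clone 5 minus clone 1 was 0.00 (95% interval -0.22 to 0.23), and another gave 0.34 for V1 minus V3 (adjusted p = 0.355). TGFBR1, the type I receptor of TGF-beta, spanned 7.46 to 7.77 and ACVR2A, a type II activin receptor, 6.05 to 6.62 over all arrays, and neither passed in any clone comparison.

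Of the secreted binding proteins and antagonists, LTBP1, LTBP2 and LTBP3 moved and the other 4 did not pass. LTBP1, which holds latent TGF-beta in the matrix, read 7.73 and 7.69 on the clone 5 arrays and 8.39 and 8.31 on the clone 1 arrays, against 7.74 on the V1 array and 7.94 and 8.11 on the V3 arrays. Clone 1 was highest. LTBP1 was 1.56-fold lower in clone 5 than in clone 1 (log2 difference -0.64, SE 0.10, adjusted p = 0.0262), but its other probe set gave -0.02 (adjusted p = 0.938). LTBP2, a relative that does not bind latent TGF-beta, read 8.48 and 8.67 on the clone 5 arrays and 8.87 and 8.92 on the clone 1 arrays, against 9.32 on the V1 array and 9.10 and 9.24 on the V3 arrays. Its 4 S100P-labelled arrays lay below the 3 vector arrays, with clone 5 lowest. LTBP2 was 1.60-fold lower in clone 5 than in the vector clones (log2 difference -0.68, SE 0.10, adjusted p = 0.00973), as was its other probe set (-0.92, adjusted p = 0.00650).

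LTBP3, another carrier of latent TGF-beta, read 7.71 and 8.22 on the clone 5 arrays and 7.81 and 8.00 on the clone 1 arrays, against 8.37 on the V1 array and 8.62 and 8.64 on the V3 arrays. Its S100P-labelled arrays, too, lay below the vector arrays. It was 1.51-fold lower in clone 1 than in the vector clones (log2 difference -0.59, SE 0.16, adjusted p = 0.0493), which is just inside the threshold of 0.05. Its other 2 probe sets gave -0.08 (adjusted p = 0.868) and -0.05 (adjusted p = 0.823), and there the arms overlapped. The BMP antagonists GREM1 and NOG, the activin antagonist FST and THBS1, an activator of latent TGF-beta, passed in no clone comparison at their brightest probe sets. Of the 7 probe sets of THBS1, 1 other passed lower in clone 1 against the vector clones (-0.38, adjusted p = 0.0462), at levels below the array median. GREM1 and THBS1 lay below the array median on every array. NOG ranged most of these 4, with 5.81 on V1 and 4.88 to 5.52 on the other 6 arrays.

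At their brightest probe sets the SMADs that carry the signal differed little. SMAD2 spanned 9.48 to 9.71, SMAD3 10.41 to 10.63 and SMAD4 7.67 to 8.11 over the 7 arrays. At these probe sets none of the 3 passed in any comparison of arms or clones. Other probe sets of SMAD3 differed from this. SMAD3 at 1 of its other 3 probe sets read 8.33 and 8.17 on the clone 5 arrays and 8.13 and 8.31 on the clone 1 arrays, against 8.98 on the V1 array and 9.15 and 8.68 on the V3 arrays. There all S100P-labelled arrays lay below all vector arrays, with -0.70 in clone 5 (adjusted p = 0.0404) and -0.73 in clone 1 against the vector clones (adjusted p = 0.0213), and -0.71 between the arms (SE 0.15, adjusted p = 0.0746). A further SMAD3 probe set also had no overlap of the arms and passed lower in clone 1 against the vector clones (-0.45, adjusted p = 0.0159), and the last passed nowhere, so its probe sets disagree. Between the arms the 95% intervals at the brightest probe sets were -0.20 to 0.25 for SMAD2, -0.26 to 0.15 for SMAD3 and -0.49 to -0.02 for SMAD4 (adjusted p = 0.367). The arrays measure RNA only and not the phosphorylation through which these proteins act.

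Among the inhibitors, SKIL and PMEPA1 fell in clone 5 relative to clone 1. SKIL, a co-repressor that binds SMADs and is itself induced by TGF-beta, read 9.17 and 8.89 on the clone 5 arrays and 9.89 and 9.75 on the clone 1 arrays, against 8.13 on the V1 array and 9.22 and 9.40 on the V3 arrays. Clone 1 was highest and V1 lowest. SKIL was 1.73-fold lower in clone 5 than in clone 1 (log2 difference -0.79, SE 0.13, adjusted p = 0.0294) and 2.27-fold lower in V1 than in V3 (log2 difference -1.18, SE 0.15, adjusted p = 0.00883). A second probe set of SKIL gave -1.64 for V1 minus V3 (adjusted p = 0.00575) but -0.39 for clone 5 minus clone 1 (adjusted p = 0.281). PMEPA1, a TGF-beta-induced protein that sequesters SMAD2 and SMAD3, read 8.15 and 8.27 on the clone 5 arrays and 9.22 and 9.26 on the clone 1 arrays, against 9.29 on the V1 array and 8.85 and 9.02 on the V3 arrays. Clone 5 stood alone below the other 5 arrays. PMEPA1 was 2.04-fold lower in clone 5 than in clone 1 (log2 difference -1.03, SE 0.10, adjusted p = 0.00615) and 1.87-fold lower than in the vector clones (adjusted p = 0.00292). For clone 5 minus clone 1, another of its 3 probe sets gave -0.55 (adjusted p = 0.0472). The dimmest gave -0.33 (adjusted p = 0.371), and there clone 5 overlapped V3.

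SKI, the relative of SKIL, read 7.49 and 7.47 on the clone 5 arrays and 7.62 and 7.61 on the clone 1 arrays, against 8.29 on the V1 array and 7.55 and 7.75 on the V3 arrays. V1 alone was high. SKI was 1.56-fold higher in V1 than in V3 (log2 difference 0.64, SE 0.12, adjusted p = 0.0291), which is the opposite direction to SKIL, though its other 2 probe sets gave 0.22 and 0.08 and did not pass. SMAD6, an inhibitory SMAD of BMP signalling, was 1.37-fold higher in clone 1 than in the vector clones (adjusted p = 0.0185), and its arrays spanned 6.51 to 7.23. This was seen at 1 of its 4 probe sets, and the other, dimmer ones gave -0.12, 0.06 and 0.07 and did not pass. SMAD7, which blocks TGF-beta receptors, passed in no comparison, with 5.90 to 6.82, and BAMBI, a pseudoreceptor, lay below the median throughout. TGFBI, a secreted matrix protein named for its induction by TGF-beta, read 11.16 and 11.19 on the clone 5 arrays and 11.52 and 11.48 on the clone 1 arrays, against 10.88 on the V1 array and 11.58 and 11.68 on the V3 arrays. V1 was lowest, and TGFBI was 1.68-fold lower in V1 than in V3 (log2 difference -0.75, SE 0.11, adjusted p = 0.0122).

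The window before the SKIL start is shown because SKIL passed both within the S100P-labelled arm and within the vector arm. It is chr3:170357465-170357714 on the plus strand (RefSeq, GRCh38.p14). Capitals mark, from left to right, GGCGCC, the SMAD box read on the other strand (GTCTG) and TGACGTCA.
SKIL: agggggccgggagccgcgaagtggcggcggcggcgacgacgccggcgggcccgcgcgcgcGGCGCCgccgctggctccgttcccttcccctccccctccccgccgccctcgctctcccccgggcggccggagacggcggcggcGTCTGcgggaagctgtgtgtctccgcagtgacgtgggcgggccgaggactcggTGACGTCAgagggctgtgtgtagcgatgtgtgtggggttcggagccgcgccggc
The matches lay at -190, -107 and -54 from the start, and no TEAD match was present in these letters.

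**Figure D2:**
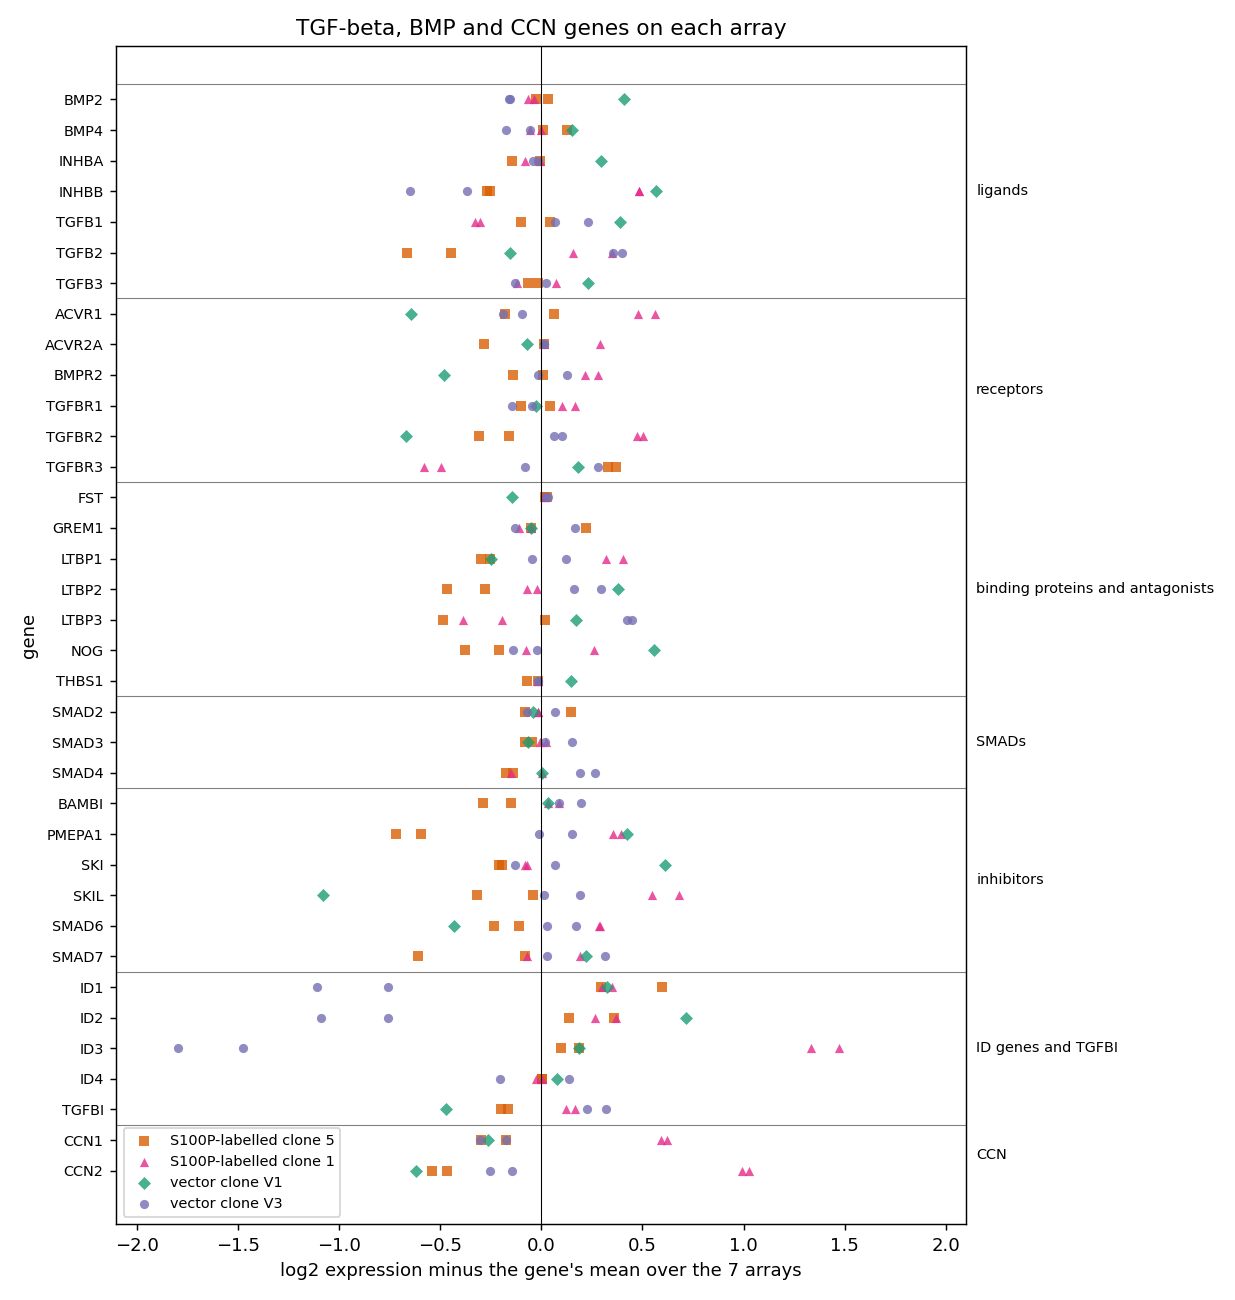
Log2 expression of the 36 measured members on each array (x axis), each as the difference from that gene's mean over the 7 arrays, with genes on the y axis ordered by role. Each symbol is 1 array, and arrays of equal value overlie each other. Clone 1 arrays are at the right for CCN1, CCN2, ID3 and TGFBR2, V3 arrays are at the left for ID1, ID2 and ID3, and SMAD2 and SMAD3 stay near 0 at these probe sets.

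Within the arms, 4 members passed both in clone 5 against clone 1 and in V1 against V3 (TGFBR2, SKIL, INHBB and ID3), which is 40% of the 10 that passed in the S100P-labelled arm and 44.4% of the 9 in the vector arm. Over all genes, 178 passed in both, which is 29.8% of those that passed in clone 5 against clone 1 and 11.7% of those that passed in V1 against V3. The 2 comparisons share no clone but share 1 estimate of the spread. TGFBR2 and SKIL were lower in clone 5 than in clone 1 and lower in V1 than in V3, while ID3 and INHBB were lower in clone 5 than in clone 1 and higher in V1 than in V3. Clones within an arm, which carried the same construct, thus differed in these genes by 1.65-fold to 3.54-fold.

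Against the mean of V1 and V3, clone 5 differed in 6 of 36 members, where 8.59% of all genes passed. Of these, 2 were higher, against 5.65% of all genes, and 4 lower, against 2.94%, and 12 of the 97 probe sets passed, against 6.75% of all probe sets. Clone 1 differed in 15 of 36, where 17.5% of all genes passed. Here 11 were higher, against 11.7% of all genes, and 4 lower, against 5.75%, and 22 of the 97 probe sets passed, against 12.8% of all probe sets. These 2 comparisons share the vector arrays. ID1 and ID3 were higher and SKI was lower in both, with ID1 at 0.75 in clone 5 and 0.63 in clone 1, and SKI at -0.49 in clone 5 and -0.36 in clone 1. SKI passed at 1 of its 3 probe sets only. The others gave -0.37 and 0.12 in clone 5 and -0.21 and -0.09 in clone 1. The ID1 and ID3 values set the S100P-labelled clones against a mean that the low V3 arrays pull down, and the SKI values against one that the high V1 array pulls up. At their brightest probe sets, 21 of the 36 members passed in at least 1 of the 4 clone comparisons, where 21.5% of all genes did, and 15 passed in none.

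**Figure D3:**
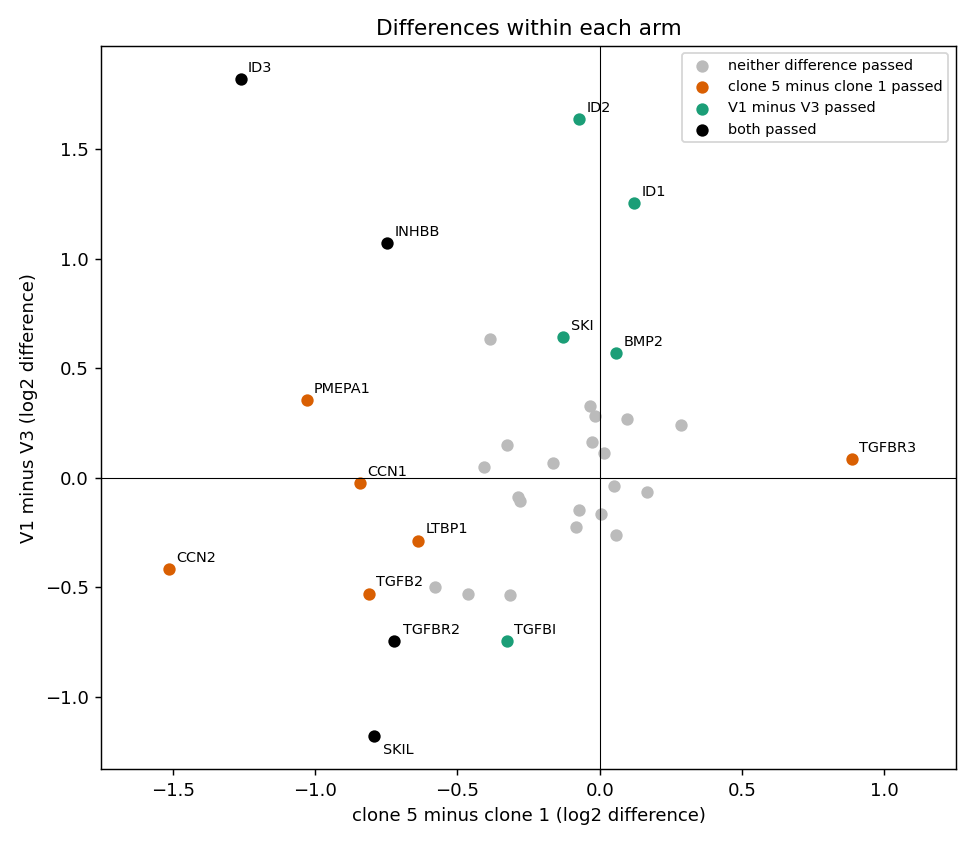
Log2 difference of clone 5 minus clone 1 (x axis) against V1 minus V3 (y axis), each point 1 of 36 members, coloured by whether limma's adjusted p passed 0.05 in either. CCN2 lies farthest left at -1.51, ID3 has the highest V1 minus V3 value at 1.82, and SKIL and TGFBR2 lie below 0 on both axes.

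Between the arms, 0 of the 36 members and 0 of their 97 probe sets passed, in a limma fit with the clone as a random block, where 1.55% of all genes (1.03% higher and 0.526% lower) and 1.12% of all probe sets passed. At an unadjusted p of 0.05, 7 members passed (ID3, ID1 and ACVR1 higher, TGFB1, LTBP2, LTBP3 and SMAD4 lower in the S100P-labelled arm), against 15.1% of all genes. The largest difference was that of ID3 at 1.69 (SE 0.54, 95% interval 0.46 to 2.92, adjusted p = 0.238). ID1 followed at 0.83 (SE 0.32, adjusted p = 0.349) and CCN2 at 0.62 (SE 0.41, adjusted p = 0.652). These intervals are not adjusted for the number of genes. The fit sets 1 correlation within a clone (0.287) for all probe sets. Where clones of an arm differ widely, as for ID3, the SE and interval thus understate the spread between clones. With the arrays of each clone averaged first, 1 gene of the whole array passed between the arms. The median difference of the members was 0.00, as was that of all genes.

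Within an arm the clones were unequal for several of these genes. For ID3 and ID1 the V1 array lay within or next to the S100P-labelled arrays and only V3 was low. Leaving out a clone leaves 1 clone in its arm. The p-values of such fits cannot separate a difference between arms from a trait of that clone. Without V1, which leaves V3 alone in the vector arm, ID3 was 2.41 (adjusted p = 0.0326), ID1 was 1.32 (adjusted p = 0.00461) and ID2 passed as well. For CCN2 only clone 1 was high. Without clone 1 the CCN2 difference turned to -0.21 (adjusted p = 0.432) and that of SKIL to -0.02 (adjusted p = 0.986), and without clone 5 CCN1 and CCN2 passed, CCN2 with 1.34 (adjusted p = 0.0235).

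At the brightest probe set, TGFB1, LTBP2 and LTBP3 were the members whose S100P-labelled arrays all lay below all vector arrays, 3 of 36, and 0 of 36 lay above, where 5.51% of all genes lay below and 8.67% above, 14.2% in all. Their differences were -0.42 for TGFB1 (SE 0.13, adjusted p = 0.228), -0.50 for LTBP2 (SE 0.13, adjusted p = 0.147) and -0.59 for LTBP3 (SE 0.16, adjusted p = 0.168). LTBP2 passed without clone 1. The second probe set of TGFB1 gave 0.10, so the low level was seen at 1 of its 2 probe sets. For LTBP3 it was seen at 1 of 3, the others giving -0.31 and 0.01, and for LTBP2 at both. The 2 SMAD3 probe sets without overlap, described above, are not in this count of members.

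**Figure D4:**
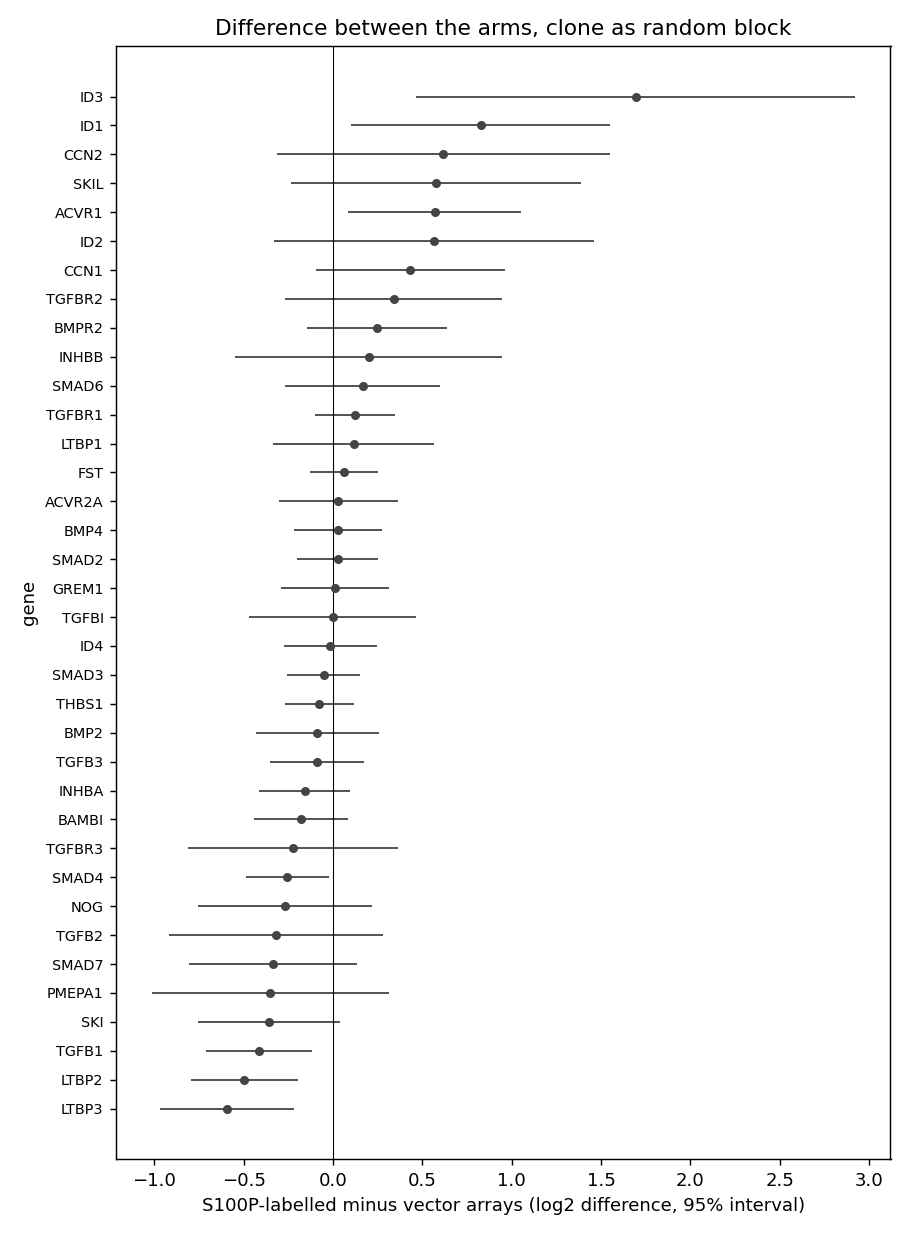
Log2 difference of S100P-labelled minus vector arrays (x axis) with its unadjusted 95% interval for the 36 measured members (y axis, ordered by difference), from limma with the clone as random block. ID3 is highest at 1.69 with the widest interval, LTBP3 is lowest at -0.59, and no member passed after adjustment over all probe sets.

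Further genes of the pathway were read from 8 lists by role, each gene at its brightest probe set only. Other probe sets of these genes were not checked. The median differences of the lists between the arms lay between -0.14 and 0.18, against 0.00 for all genes. Over all genes, 1.55% passed between the arms (1.03% higher and 0.526% lower), and the calls given here are single genes and not a result about a list. Between the arms 0 of 11 other ligands, 0 of 8 other receptors, 0 of 15 other extracellular modulators, 0 of 4 other CCN genes, 0 of 17 other TGF-beta targets and 0 of 8 other BMP targets passed. Of 15 other SMADs and SMAD regulators 1 passed, FKBP1A, which binds type I receptors and keeps them inactive. It read 11.77 and 11.92 on the clone 5 arrays and 11.50 and 11.64 on the clone 1 arrays, against 12.51 on the V1 array and 12.54 and 12.54 on the V3 arrays. All S100P-labelled arrays lay below all vector arrays (log2 difference -0.82, SE 0.11, adjusted p = 0.0180). Of 11 YAP and TEAD genes 1 passed, VGLL4, a TEAD partner that competes with YAP, which was higher (log2 difference 0.81, SE 0.12, adjusted p = 0.0242). VGLL4 read 9.50 and 9.31 on the clone 5 arrays and 9.20 and 9.47 on the clone 1 arrays, against 8.66 on the V1 array and 8.41 and 8.58 on the V3 arrays. The calls of FKBP1A and VGLL4 come from the fit with 1 correlation for all probe sets. With the arrays of each clone averaged first, 1 gene of the whole array passed.

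Between clone 5 and clone 1, 2 of 17 other TGF-beta targets passed, both lower in clone 5, where 3.02% of all genes passed, and the medians of the 8 lists lay between -0.04 and 0.08, against 0.02 for all genes. CDH2, N-cadherin of mesenchymal cells, read 6.61 and 6.39 on the clone 5 arrays and 8.68 and 8.57 on the clone 1 arrays, against 8.33 on the V1 array and 8.49 and 8.58 on the V3 arrays. Clone 5 stood alone at the low end, 4.37-fold below clone 1 (log2 difference -2.13, SE 0.11, adjusted p = 9.59e-04). KLF10, an early TGF-beta response factor, was 1.96-fold lower (log2 difference -0.97, SE 0.11, adjusted p = 0.0101). AMOTL2, a YAP and TEAD target and the only 1 of 11 genes of that list to pass, read 9.18 and 8.99 on the clone 5 arrays and 10.47 and 10.45 on the clone 1 arrays, against 9.08 on the V1 array and 9.23 and 9.25 on the V3 arrays. As for CCN1 and CCN2, clone 1 alone lay above the rest (log2 difference -1.37, SE 0.10, adjusted p = 0.00194).

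The further genes lower in clone 5 than in clone 1 were SMAD1 and RUNX2 among 15 SMADs and regulators and CCN5 among 4 CCN genes. Of all genes, 2.35% passed lower there. SMAD1, which carries BMP signals, was 1.76-fold lower (log2 difference -0.82, SE 0.12, adjusted p = 0.0222), RUNX2 2.23-fold (log2 difference -1.16, SE 0.10, adjusted p = 0.00406) and CCN5 2.36-fold (log2 difference -1.24, SE 0.11, adjusted p = 0.00377). No other ligand, receptor, extracellular modulator or BMP target of the lists passed there. Beside these genes, 3 of 7 markers of the Panc1 and epithelial list were higher in clone 5 than in clone 1, KRT8 by 1.15, KRT18 by 0.69 and KRT19 by 1.32, as was the leukocyte marker CD14 by 0.74 (adjusted p = 0.0156). Of all genes, 0.673% passed higher in clone 5 than in clone 1. CD14 spanned 3.79 to 4.64, around the array medians. The mean log2 level of the 7 Panc1 and epithelial markers, VIM included, was 10.47 to 10.50 on the clone 5 arrays, 10.08 to 10.15 on the clone 1 arrays, 9.99 on V1 and 10.59 to 10.74 on V3. Against the vector clones, KRT7 (-0.70) was lower and CDH1 (2.32), THY1 (0.63) and CD14 (0.39) were higher in clone 5. In clone 1, KRT7 (-0.97), KRT8 (-1.44), KRT18 (-0.86) and KRT19 (-1.23) were lower and CDH1 (2.68) and COL1A1 (0.43) higher than in the vector clones. The part of these markers in the differences of the pathway genes was not tested.

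Between V1 and V3, 4 of 17 other TGF-beta targets passed, 2 in each direction, where 7.72% of all genes passed, and the list medians lay between -0.17 and 0.18, against 0.02 for all genes. JUNB (-1.18) and MMP2 (-1.20) were lower in V1, while SPHK1 (0.99) and TPM1 (0.53) were higher. GDF15, a distant ligand of the family induced by cell stress, was 3.36-fold lower in V1 (log2 difference -1.75, SE 0.17, adjusted p = 0.00333), and ACVR2B (-1.08) and SMAD9 (-0.99) were lower too. DLX2, a BMP target, was higher in V1 by 0.58 and TEAD4 by 0.71. Among the markers, CDH1 (-2.43), KRT8 (-0.74) and KRT19 (-0.61) were lower in V1 than in V3 and the fibroblast marker THY1 (0.68) was higher, and their part was not tested either.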

How the data were processed

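The 7 arrays are of the HG-U133 Plus 2 type. The authors had run RMA on them, per the submitters' processing notes, and the deposited values were taken as log2 from their range; the RMA version and any joint normalization of the 7 arrays are not stated in the labels or notes used here, and RMA may shrink differences between dim signals. Of 54675 probe sets, 62 controls were left out and 54613 tested; 41091 carried 1 gene symbol in the platform annotation, 1801 several and 11721 none. No detection calls or scanner files were used here.

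Fits were made in R 4.3.3 with limma 3.58.1 and statmod 1.5.0, two-sided, with Benjamini-Hochberg adjustment over all probe sets. The arms were compared with the clone as random block (consensus correlation 0.287). Single clones were compared with 4 clones as fixed effects, V1 with 1 array being assumed to vary like the others. Array values are given for the 20 members of largest difference in the clone comparisons they passed (SMAD6, the remaining one that passed, by range), and list genes by largest difference. Whether the arrays of a clone were separate cultures is not in the labels, so p-values may measure technical spread in part. Across probe sets r was 0.996 to 0.998 between arrays of a clone, and 6.52% to 8.73% of their values were identical, against 4.51% to 9.21% between clones. The number of arrays limits the precision. The members and lists were chosen with earlier results of these data known. Promoters came from RefSeq and matched 33 of 37 members (not SKI, BMP2, CCN1 or NOG).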

Additional observations from a re-analysis of the deposited data

Results flagged for a closer look

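Within the S100P-labelled arm, clone 5 and clone 1 carry the same construct, and the difference between them was itself tested by limma for 10 members that passed. As clone 5 minus clone 1 on the log2 scale the values were -1.51 for CCN2, -1.26 for ID3, -1.03 for PMEPA1, -0.84 for CCN1, -0.81 for TGFB2, -0.79 for SKIL, -0.75 for INHBB, -0.72 for TGFBR2 and -0.64 for LTBP1, and 0.89 for TGFBR3. Clone 1 had the higher ACTB 3' minus 5' difference of the 2, and the part of RNA quality was not tested.

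In 3 of the 36 members 1 of the 4 S100P-labelled arrays was flagged as apart from the other 3. Its gap equalled the whole range (ratio 1) only because the other 3 held identical values. These were ID4 (4.74 against 4.77), FST (5.06 against 5.05) and THBS1 (4.03 against 4.08). Chance flags about 1 in 20 groups of untied values. That rate does not hold for tied values as here, and the ranges are small.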

How the results depend on the processing

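Of 698 member results under alternative settings, 2 changed sign. Without clone 1 the difference between the arms was -0.21 for CCN2 and -0.017 for SKIL. Between the arms, the 698 results cover only the members of largest difference (ID3, ID1, CCN2, LTBP3, SKIL and ACVR1). In each clone comparison they cover only the members that passed there. They were thus selected by the main fits, and sign changes of the other members were not counted. The causes of the changes below were not tested, beyond fewer arrays, clones or probe sets where a setting leaves some out. Between the arms, genes past the threshold numbered 307, and 547 without the clone block, 1 with arrays of each clone averaged, 173 with probe sets under a mean of 6 left out, 661 without clone 5, 894 without clone V3, and 94 to 774 with 1 array left out. Members numbered 0, and 1 without clone 1 (LTBP2), 2 without clone 5, 1 without V3 (SKI) and 0 to 3 with 1 array left out. In clone 5 against clone 1, 597 genes passed, and 904 with arrays centred on their medians, 1340 and 1555 with probe sets under 5 and under 6 left out, and 0 to 597 with 1 array left out (members 0 to 10, against 10). In V1 against V3, 1526 genes passed, and 2493 and 2635 with those probe sets left out, and 0 to 435 with 1 array left out (members 0 to 4, against 9). For clone 1 against the vector clones 3459 genes passed, and 435 to 2536 with 1 array left out (members 2 to 12, against 15). For clone 5 against them 1699 genes passed, and 2676 and 2734 with those probe sets left out, and 105 to 962 with 1 array left out (members 0 to 7, against 6, and 10 under both filters).

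With the array letter as a replicate block and V1 left out, 2 members passed between the arms and 10 in clone 5 against clone 1. The counts over all genes for these comparisons are not given here, so the member counts are not a result about the members. Against V3, 10 members passed in clone 1 and 7 in clone 5, where 1990 and 1048 genes passed. In this setting the vector arm is clone V3 alone. Same-lettered arrays deviated together little (r of 0.05, -0.08 and 0.06 across probe sets for the 3 pairs of clones). A shared handling that touched few probe sets would not show in these values, so what the letters stand for is not known. The depth limit here is signal: INHBA, BMP2, BAMBI, GREM1 and THBS1 lay below the array median on all 7 arrays, where differences may be compressed.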
